A study of Rattus norvegicus with 12 samples.

Results

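Agmo encodes alkylglycerol monooxygenase, a membrane enzyme of the endoplasmic reticulum that cleaves the ether bond of alkylglycerol lipids. The reaction uses tetrahydrobiopterin as cofactor and releases a fatty aldehyde, which fatty aldehyde dehydrogenase then oxidises. The liver is known as a main site of this activity. Circular RNAs (circRNAs) form when the end of a downstream exon is spliced back to the start of an upstream exon of the same transcript, so that reads across this back-splice junction count circles and not the linear messenger RNA.

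The circles of Agmo were taken as the 13 entries of the circRNA table that carry its symbol, plus the 5 entries that carry its Ensembl identifier ENSRNOG00000023116 and share its transcript ENSRNOT00000032108. These 18 entries, of 21876 in all, had 18 different pairs of deposited coordinates, each counted as a junction. They held 520 back-splice reads, 495 of them under the symbol and 25 under the identifier. Agmo was 1 of 6021 host genes and was chosen by its read counts in the 3 groups, the same counts that are described here. By the size of its p-value it stood at rank 3 of the 1337 tested hosts when sleeve gastrectomy was set against sham, and at rank 4 when relapse was set against sleeve gastrectomy. Its levels in the 3 groups are therefore given as a description, and the fitted fold changes and p-values below support nothing beyond it.

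The libraries came from the liver of wild-type Wistar rats that were all fed for 4 weeks on a diet in which fat supplied 60% of the calories. After 16 h without food each then received 35 mg/kg of streptozotocin, which destroys the insulin-producing cells of the pancreas. Fasting glucose above 16.7 mmol/L 3 days later made a rat eligible, so the sham-operated controls were diabetic as well. There were 5 libraries from sham-operated rats, 5 from rats taken 3 months after sleeve gastrectomy (resection of the greater part of the stomach) and 2 from operated rats with a return of diabetes. Neither the age of the rats nor, for sham and relapse, the time of tissue collection is stated in the sources used here, and nothing states that each library was a separate animal, so the spread between libraries may be partly technical.

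The libraries held 18176 to 37229 back-splice reads, the most in relapse 2, so that 3 reads, the upper limit that a count of 0 allows, stood for 80.6 to 165 reads-per-million (RPM) of all back-splice reads. Of 11 hepatocyte markers, 10 gave circles, Ttr being without reads, at a summed 21914 to 38136 RPM after sleeve gastrectomy, 27431 to 39338 in sham and 19650 to 21623 in relapse. Macrophages, which are also known to contain this enzyme, had circles of 3 of 11 markers, at 52.1 to 511 RPM in sham, 34.2 to 835 after sleeve gastrectomy and 108 to 242 in relapse, and the defining Kupffer cell genes Clec4f, Cd5l, Vsig4, Timd4 and Marco had 0 reads. Endothelial markers (5 of 7 with reads) summed to 275 to 852, 378 to 1343 and 886 to 920 RPM, and stellate cell markers (3 of 8) to at most 344 RPM. Of 8 lymphocyte and granulocyte markers 1 had reads, and the 5 cholangiocyte and 6 pancreas and gut markers had none. These are counts of circles in bulk liver, in which fewer cells of a type and less circular RNA per cell cannot be told apart.

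Of the 18 junctions, 14 were written as exonic and 4 as intronic, the latter with 15 reads between them. By their coordinates, ciRNA1575, ciRNA558 and ciRNA2313 span exons of the transcript, so the label intronic is not borne out for them. The reads of the 4 are not in the exonic counts below. All 18 junctions lay on the plus strand of chromosome 6 (build Rnor_6.0, coordinates as deposited, in which a start may be off by 1 base). The leading junction, circRNA1171, joined the end of exon 12 back to the start of exon 6 (57016029 to 57048318) and held 155 reads, 29.8% of the Agmo reads. CircRNA1170 shared its start and ended at exon 10 (57016029 to 57024443), with 124 reads. CircRNA1169 ran from exon 4 to exon 5 (56978122 to 56991856), with 109 reads. These 3 circles had reads in all 12 libraries.

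The start of exon 4 was also used by the circle of the widest span, circRNA1168, with 49 reads. It reaches from exon 4 to exon 12 over 70196 bases of the genome (56978122 to 57048318). CircRNA4236, exons 4 to 10 (56978122 to 57024443), with 27 reads, used the start of exon 4 as well. The remaining entry with at least 10 reads was ciRNA1575 (57016029 to 57059097), with 10 reads in 3 libraries. It was written as intronic, but its deposited start is that of exon 6, to within 1 base, and it ends beyond exon 12. Together these 6 junctions took 91.2% of the reads. The other 12 junctions held 46 reads in all, and 8 of the 18 were read in 1 library each. Among the 12, circRNA15964 (57019148 to 57024443) and ciRNA2313 (57019152 to 57024447) each span 5295 bases and were read in sham 2 alone. Whether they are the same junction written at different positions was not tested.

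Few exon ends carried nearly all back-splices. Of 505 reads of exonic circles, 55.2% started at exon 6 and 38.2% at exon 4. Exon 12 gave the end of 44.8%, exon 10 of 31.5% and exon 5 of 21.6%. Starts at exons 5, 7, 9 and 11 made up 9, 3, 11 and 7 reads. The circle of exons 1 to 3, circRNA16400, was the one junction upstream of exon 4 in exonic circles, with 3 reads in sham 2. Its exon numbers, and those of circRNA5847 (exons 4 to 8, 8 reads), were read from the flanking introns in the table.

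**Figure D1:**
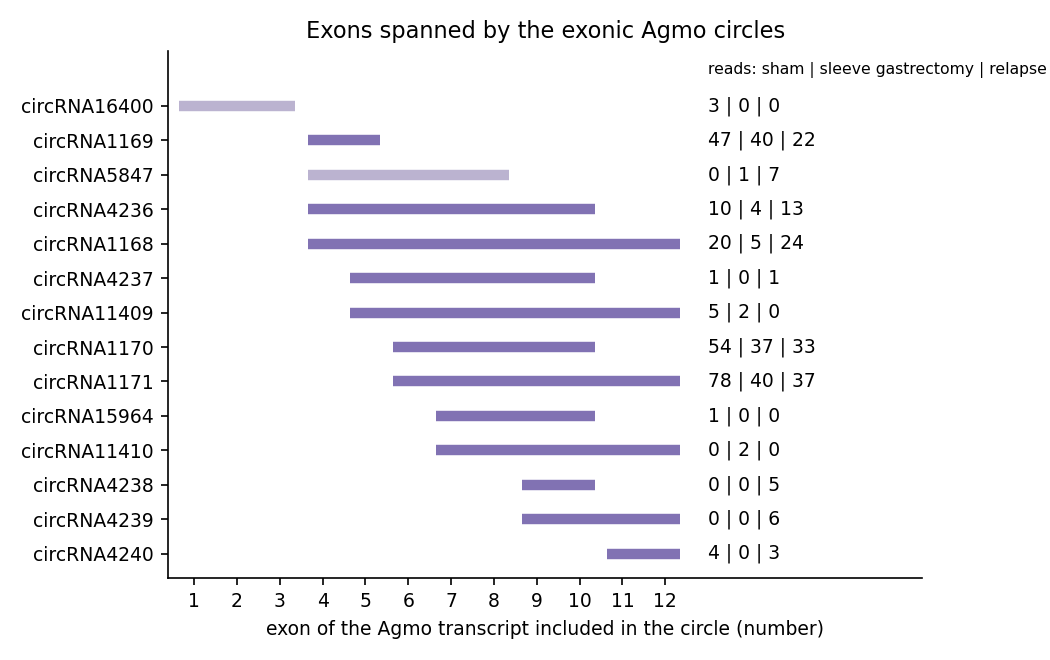
Exonic circles of Agmo drawn by the exons they span (exon number on the x axis, 1 bar per junction), with their reads in the 3 groups at the right. Dark bars carry exon numbers in the table and light bars were placed by their flanking introns; the bars that begin at exon 4 or 6 carry most of the reads, and most bars end at exon 10 or 12.

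Reads of Agmo were spread over many junctions. By reads, which are not corrected for length, Agmo ranked 79 of 6021 hosts, and 55 hosts had more junctions than its 18, where the median host had 2. Among the 92 other hosts within 1.5-fold of its total (348 to 768 reads), the number of junctions had a median of 9 (2 to 49), and 12 hosts had more than Agmo. The share of the leading junction had a median of 72.8% in these hosts (24.9 to 99.8%), and 3 had a share below the 29.8% of Agmo. Exonic circles of 5 or more exons held 374 of the exonic Agmo reads over 8 junctions, and those of 2 to 4 exons held 131 over 6. No exonic Agmo circle had a single exon.

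Summed over all junctions, sham libraries 1 to 5 had 53, 54, 53, 32 and 41 Agmo reads. Sleeve gastrectomy libraries 1 to 5 had 29, 22, 20, 39 and 23 reads. Relapse 1 had 26 and relapse 2 had 128. Sleeve gastrectomy 4 is the one library of its group that reached the read range of sham, and with 30520 back-splice reads it was deeper than all 5 sham libraries.

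Scaled to counts-per-million (CPM) of the tested hosts after TMM normalisation, sham libraries 1 to 5 stood at 2412, 3861, 3459, 2046 and 2444. The sleeve gastrectomy libraries 1 to 5 stood at 1685, 1348, 1365, 1768 and 1030.3. Relapse 1 stood at 1695 and relapse 2 at 4483. Every sleeve gastrectomy library was below every sham library, a pattern met by 0.299% of the 1337 tested hosts, but in the contrast on which Agmo was picked. In CPM relapse 1 lay within the range of sleeve gastrectomy. In RPM it stood at 1407, above the highest sleeve gastrectomy library at 1370.4 and below every sham library. Relapse 2 was above all other libraries on both scales.

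By mean level the order was relapse with 3089 ± 1972 CPM (SD, n = 2), sham with 2845 ± 774 (SD, n = 5) and sleeve gastrectomy with 1439 ± 296 (SD, n = 5). The relapse and sham means differed by less than the SD of either group. Counting error alone would give a relative spread of 15.0% in sham, 19.95% after sleeve gastrectomy and, for relapse, 15.2%. The observed spread was 27.2%, 20.5% and 63.8%, the last from 2 libraries.

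**Figure D2:**
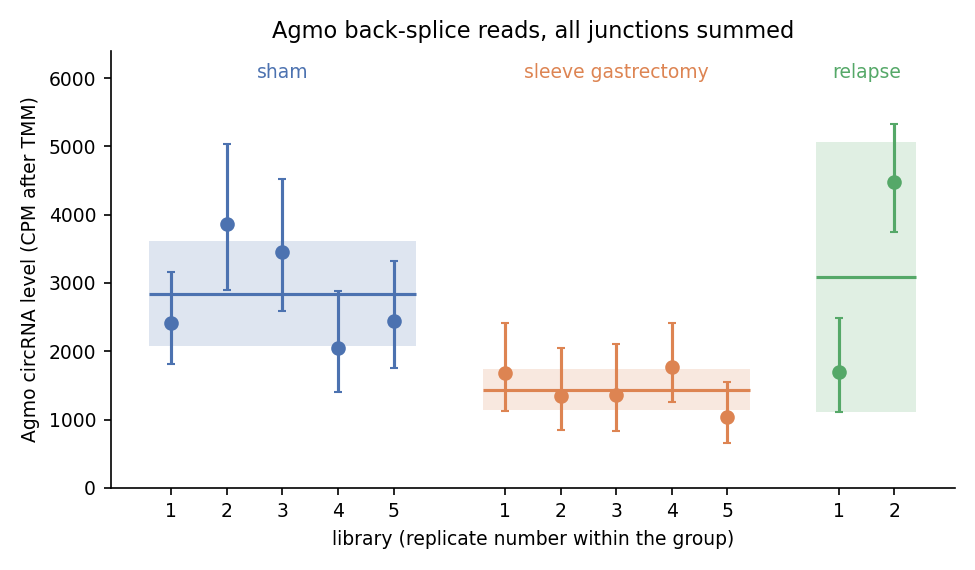
Agmo circRNA level in each library (y axis, CPM after TMM, from 0; x axis, replicate number), with exact Poisson 95% intervals of the count as bars, group means as lines and 1 SD as shaded bands. The 5 sleeve gastrectomy libraries lie between 1030.3 and 1768 CPM, below all sham libraries, and the 2 relapse libraries stand at 1695 and 4483 CPM.

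The first comparison asks how Agmo circles stand 3 months after the operation in diabetic liver. In edgeR's quasi-likelihood test over all hosts, the summed Agmo reads had a log2 fold change of −0.97 (SE 0.28) for sleeve gastrectomy against sham and did not pass (adjusted p = 0.328). Of the 1337 hosts, 0.15% were called in this comparison. The fold change ranged from −1.05 to −0.84 with any 1 of the 12 libraries left out. Macrophage and hepatocyte markers, given above with their ranges, overlapped between these groups, and their part in the level of Agmo was not tested.

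The relapse comparisons ask how livers in which diabetes returned compare with the other groups. Agmo had a log2 fold change of 1.12 (SE 0.35) for relapse against sleeve gastrectomy (edgeR adjusted p = 0.544) and of 0.15 (SE 0.35) against sham (adjusted p = 0.99). The shares of hosts called were 0.0748% and 0.15%. The relapse comparisons share the relapse libraries. That against sleeve gastrectomy shares its sleeve gastrectomy libraries, and that against sham its sham libraries, with the first comparison. The values of the comparisons are therefore not independent of each other. Without relapse 2 the log2 fold change was 0.23 against sleeve gastrectomy and −0.74 against sham, and without relapse 1 it was 1.69 and 0.73. Both values therefore moved with either relapse library, and the one against sham changed sign between them. Relapse 2 held 128 of the 154 relapse reads. Hepatocyte markers were lower in both relapse libraries (19650 to 21623 RPM) than in any other library, and endothelial markers (886 to 920 RPM) lay above every sham library and within the range of sleeve gastrectomy. Their part in the level of Agmo was not tested.

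The junctions were read one by one next. The leading circle circRNA1171, exons 6 to 12, had 20, 19, 18, 12 and 9 reads in sham 1 to 5, 13, 4, 5, 11 and 7 in sleeve gastrectomy 1 to 5, and 6 and 31 in relapse 1 and 2. Its mean level was 733 ± 255 RPM in sham (SD, n = 5), 336 ± 167 after sleeve gastrectomy (SD, n = 5) and 579 ± 359 in relapse (SD, n = 2). The ranges of the groups overlapped in reads. Its fitted log2 fold change for sleeve gastrectomy against sham was −1.08 (SE 0.44).

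CircRNA1170, exons 6 to 10, had 9, 7, 18, 8 and 12 reads in sham, 9, 7, 4, 8 and 9 after sleeve gastrectomy, and 5 and 28 in relapse. The means were 516 ± 253, 311 ± 80.04 and 511 ± 340.4 RPM (SD, n = 5, 5 and 2). Sham 3 and relapse 2 were the high libraries, and the others lay between 4 and 12 reads. The log2 fold change for sleeve gastrectomy against sham was −0.68 (SE 0.49), or −0.37 without sham 3.

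CircRNA1169, exons 4 and 5, had the fitted value nearest 0 of the 4 tested junctions between sleeve gastrectomy and sham. It had 13, 14, 3, 7 and 10 reads in sham, 6, 11, 7, 10 and 6 after sleeve gastrectomy, and 5 and 17 in relapse. The means were 435 ± 223, 347 ± 125 and 364 ± 131 RPM (SD, n = 5, 5 and 2), closer together than their SDs. The log2 fold change for sleeve gastrectomy against sham was −0.33 (SE 0.52), or −0.04 without sham 2, −0.53 without sham 3, −0.52 without sleeve gastrectomy 2 and −0.20 without sleeve gastrectomy 5.

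The circle of the widest span, circRNA1168 from exon 4 to exon 12, had 3, 2, 5, 4 and 6 reads in sham, 0, 0, 2, 3 and 0 after sleeve gastrectomy, and 9 and 15 in relapse. Its means were 190 ± 83.04 RPM in sham, 41.2 ± 56.6 after sleeve gastrectomy and, for relapse, 445 ± 59.6 (SD, n = 5, 5 and 2). In CPM, relapse 1 with 650 and relapse 2 with 601 stood above every other library. It was the 1 tested Agmo junction of 4 with both relapse libraries above every sleeve gastrectomy library, a pattern met by 4.54% of the 1519 tested junctions. It was also the 1 of 4 with both above every sham library, a pattern met by 6.65%. The share of junctions that met both patterns at once was not computed. CircRNA1168 was singled out after its values were seen. Its fitted log2 fold change was −2.02 (SE 1.02) between sleeve gastrectomy and sham. For relapse it was 3.25 (SE 1.16) relative to sleeve gastrectomy and 1.23 (SE 1.10) relative to sham. These rest on few reads, 5 in the sleeve gastrectomy group in all.

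The 4 junctions above were those of the 18 that passed the filter on low counts. In edgeR 0 of the 4 passed in any comparison, where the share called among the 1519 tested junctions was 0% in each. At an unadjusted edgeR p under 0.05 there was 1 of the 4 in each of the comparisons with sleeve gastrectomy and 0 between relapse and sham. Of all 1519 tested junctions, 59 were under 0.05 for sleeve gastrectomy against sham. For relapse, 73 were under 0.05 against sleeve gastrectomy and 88 against sham. The 1 of 4 lies in the contrasts on which Agmo was picked. DESeq2 called 0 of the 4 and 0 of all tested junctions. For relapse against sleeve gastrectomy, circRNA1171, circRNA1170 and circRNA1169 had log2 fold changes of 0.85, 0.79 and 0.14 (SE 0.56, 0.61 and 0.67), and without relapse 2 these were −0.27, −0.41 and −0.54. That of circRNA1168 lay between 2.88 and 3.94 with any library left out. Its sign could not turn in this way, since both relapse libraries stood above every sleeve gastrectomy library in CPM. The range therefore gives no support to a junction singled out after its values were seen.

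**Figure D3:**
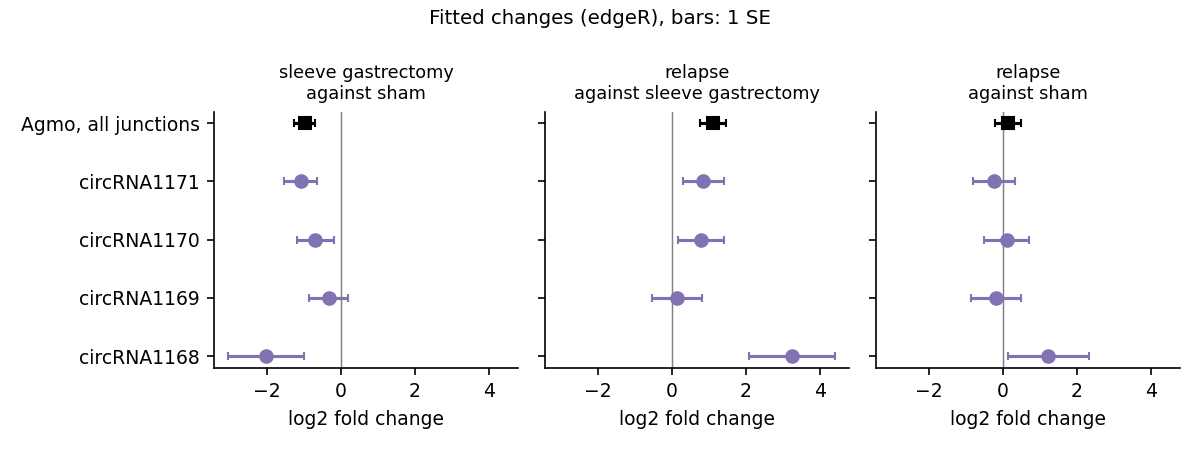
Fitted log2 fold changes (x axis) of all Agmo reads (squares) and of the 4 tested junctions (dots) in the 3 comparisons, with bars of 1 SE from edgeR. Every point lies below 0 for sleeve gastrectomy against sham, from −2.02 for circRNA1168 to −0.33 for circRNA1169, and 0 of them passed after adjustment.

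The rarer circles gave few reads. CircRNA4236, exons 4 to 10, had 2, 2, 3, 0 and 3 reads in sham, 1, 0, 2, 1 and 0 after sleeve gastrectomy, 0 in relapse 1 and 13 in relapse 2. Circles that start at exon 9, circRNA4238 (exons 9 and 10, 5 reads) and circRNA4239 (exons 9 to 12, 6 reads), were read in relapse 2 alone. The 2 reads of ciRNA558, written as intronic, were also in relapse 2. Of 8 reads of circRNA5847, 7 were in relapse 2 and 1 in sleeve gastrectomy 5. CiRNA1575, written as intronic, had 6 and 2 reads in sham 1 and 2, 2 in sleeve gastrectomy 4 and 0 in relapse.

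Sham libraries had reads of 12 of the 18 junctions, sleeve gastrectomy of 9 and relapse of 12, with 5 junctions read in all 3 groups. Single libraries had 5 to 11 junctions in sham, 3 to 8 after sleeve gastrectomy, 5 in relapse 1 and 11 in relapse 2. Sham 2, the library with the fewest reads, also had 11. The numbers of junctions were not compared between groups.

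Shares within the Agmo reads divide out the summed level of the gene. They come from the same reads as the level, down to 20 in sleeve gastrectomy 3, so they are less precise where it is low. CircRNA1171 took 37.7, 35.2, 33.96, 37.5 and 21.95% of the Agmo reads in sham 1 to 5. After sleeve gastrectomy it took 44.8, 18.2, 25.0, 28.2 and 30.4%, and in relapse 23.1 and 24.2%. The sham mean was 33.3 ± 6.52% (SD, n = 5), that of sleeve gastrectomy 29.3 ± 9.82% (SD, n = 5) and that of relapse 23.6 ± 0.807% (SD, n = 2). The differences did not pass in two-sided exact permutation tests (p = 0.476 between sleeve gastrectomy and sham, 0.476 between relapse and sleeve gastrectomy, 0.19 between relapse and sham, each 0.476 when adjusted over the 3). The difference of −3.94 percentage points between sleeve gastrectomy and sham was −6.77 without sham 5, −7.81 without sleeve gastrectomy 1 and −1.15 without sleeve gastrectomy 2. That of −5.68 between relapse and sleeve gastrectomy was −1.81 without sleeve gastrectomy 1.

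**Figure D4:**
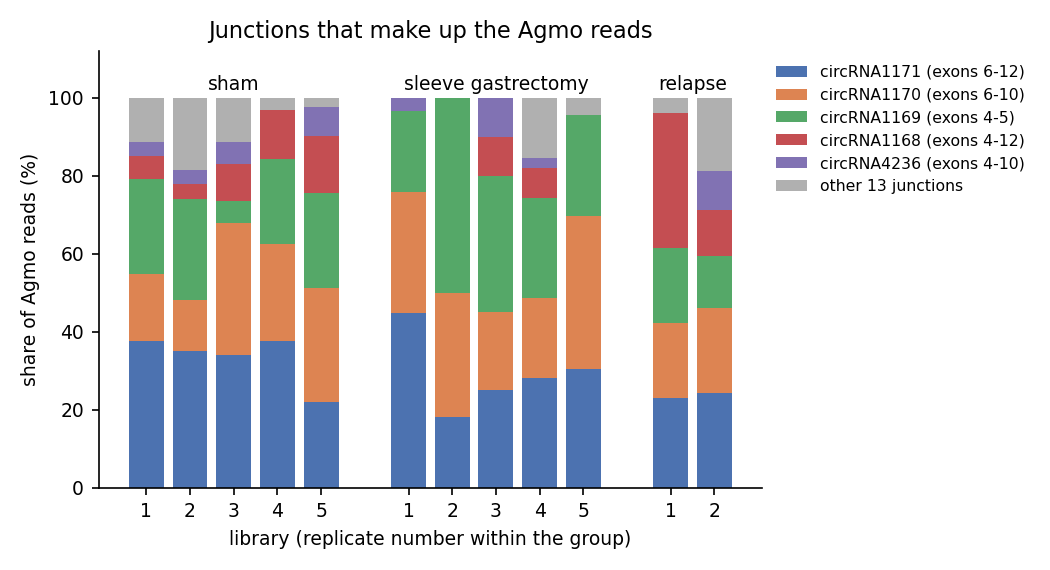
Share of the Agmo reads of each library (y axis, percent; x axis, replicate number) taken by the 5 exonic junctions with the most reads and by the other 13 junctions together. CircRNA1171 takes 18.2 to 44.8% of the reads, and circRNA1168 is missing from sleeve gastrectomy 1, 2 and 5.

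The size of the circles was summarised as the number of annotated exons between the ends of each exonic circle, weighted by reads. Back-splice reads do not show which inner exons a circle keeps. The weighted number was 5.36, 5.10, 5.89, 5.69 and 5.51 in sham 1 to 5. After sleeve gastrectomy it was 5.34, 3.86, 5.05, 5.38 and 4.83, and in relapse 6.32 and 5.54. Both relapse libraries lay above all sleeve gastrectomy libraries, and sham and sleeve gastrectomy overlapped.

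The group means were 5.51 ± 0.301 exons in sham, 4.89 ± 0.618 after sleeve gastrectomy and, for relapse, 5.93 ± 0.552 (SD, n = 5, 5 and 2). The difference of −0.617 exons between sleeve gastrectomy and sham had a two-sided exact permutation p of 0.0476 and did not pass when adjusted over the 3 comparisons (0.143). Without sleeve gastrectomy 2 the difference was −0.36. Relapse against sleeve gastrectomy differed by 1.04 exons (exact permutation p = 0.0952, adjusted 0.143), or by 0.647 without relapse 1, and relapse against sham by 0.42 (p = 0.286, adjusted 0.286), or by 0.03 without relapse 1. The smallest p these designs allow is 0.00794 for 5 against 5 libraries and 0.0476 for 2 against 5. The gene was picked by its read counts in these libraries, and the shares and exon numbers come from the same counts. The permutation tests of both therefore give no independent support.

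The exonic circles of all other hosts had 3.19 ± 0.0513 exons in sham, 3.14 ± 0.0579 after sleeve gastrectomy and, for relapse, 3.08 ± 0.0627, weighted by reads in the same way (SD, n = 5, 5 and 2). Circles ending at exon 12 took 39.0 to 54.7% of the exonic Agmo reads in sham, 18.2 to 48.6% after sleeve gastrectomy and 43.7 to 60.0% in relapse. Those ending at exon 5, all of them circRNA1169, took 21.5 ± 9.21%, 31.8 ± 11.4% and 16.7 ± 4.60%, in the same order (SD, n = 5, 5 and 2).

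**Figure D5:**
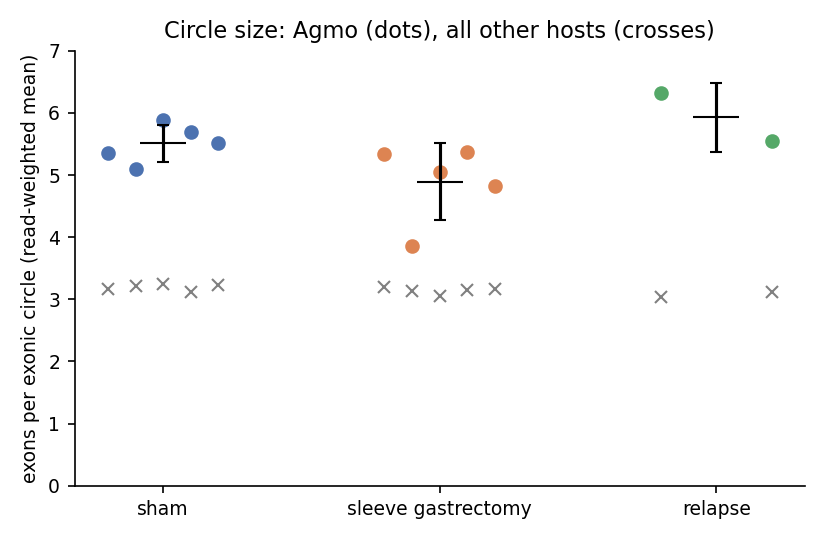
Exons per exonic circle, weighted by reads (y axis, from 0), for Agmo (coloured dots, 1 per library, black line and bar for mean and 1 SD) and for the circles of all other hosts (grey crosses). Agmo circles lie between 3.86 and 6.32 exons and those of other hosts near 3; the 2 relapse libraries lie above the 5 sleeve gastrectomy libraries.

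Genes of the same pathway were looked up as circle hosts. Of 24 symbols of ether lipid synthesis and turnover, 14 had reads and 4 passed the filter. EdgeR called 0 of the 4 in any comparison, and 0 had an unadjusted p under 0.05. Of all 1337 tested hosts, 50 had such a p for sleeve gastrectomy against sham, with 2 called. For relapse these numbers were 58 and 1 against sleeve gastrectomy, and 79 and 2 against sham. The 0 of 4 is near these shares. Agps, the peroxisomal synthase that forms the ether bond, had 462 ± 261 RPM in sham, 266 ± 134 after sleeve gastrectomy and, for relapse, 283 ± 58.7 (SD, n = 5, 5 and 2). Cept1, an enzyme of ether and other phospholipid synthesis, had 269 ± 183, 294 ± 99.6 and 242 ± 266 RPM. Pafah1b1 and Pafah1b2, subunits of the acetylhydrolase of platelet-activating factor, an ether lipid, had 478 ± 155 and 142 ± 180.05 RPM in sham and 368 ± 221 and 120.4 ± 95.7 after sleeve gastrectomy. In relapse they had 431 ± 2.33 and 229 ± 17.8 RPM, and the log2 fold change of Pafah1b2 for relapse against sleeve gastrectomy was 0.86 (SE 1.25). The median log2 fold change of the 4 was −0.28 between sleeve gastrectomy and sham, 0.09 between relapse and sleeve gastrectomy, and −0.11 between relapse and sham, where that of all 1337 hosts was 0.00, −0.05 and −0.08. Aldh3a2, the dehydrogenase that takes up the aldehyde made by Agmo, had 11 reads in 6 libraries.

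None of the 6 symbols of other fatty acid hydroxylases, the superfamily to which Agmo belongs, had a read. Of 9 symbols of chromosomal neighbours, Ispd had 13 reads in 4 libraries and Ankmy2 3 reads in 1, and neither was tested.

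The hosts most like Agmo over the 12 libraries were ranked by Spearman's rho of log2 CPM, as a description over all groups that share depth and group differences. The 5 highest of 1336 hosts were Tfcp2 (0.85), Fam208a (0.84), Mettl9 (0.83), ENSRNOG00000030199 (0.80) and Ppp6r3 (0.79), where the median host had 0.01. Tfcp2, a transcription factor, had 490.4 ± 242 CPM in sham, 140.01 ± 88.2 after sleeve gastrectomy and, for relapse, 443 ± 166 (SD, n = 5, 5 and 2), from 76 reads. Mettl9, a histidine methyltransferase, had 1315 ± 207, 885 ± 139.5 and 1430 ± 455 CPM. The 3 lowest were Rad9b (−0.85), Dnmbp (−0.83) and Ube2j2 (−0.77), and Dnmbp, an exchange factor for Cdc42, had 2426 ± 364, 3752 ± 825 and 3136 ± 819 CPM. With 12 libraries and 1336 hosts, values of this size at both ends were read as a ranking alone.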

How the data were processed

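Circular RNA was measured by sequencing of ribosome-depleted, RNase R-treated liver RNA in 12 libraries. The submitters' processing notes name cutadapt 1.9, FastQC, TopHat2 2.0.10 and Rnor_6.0; the caller of back-splice reads is not given in the sources used here. The authors deposited raw back-splice read counts per circRNA entry and library, and these count columns were used; their SRPBM columns were not. Of 21876 entries, 18175 name the host by symbol, 2868 by Ensembl identifier and 833 are intergenic. Single reads made up 38.1% of the values above 0 in symbol entries and 2.26% in identifier entries. How the kinds were filtered before deposit is not given in the sources used here. Identifiers were joined to symbols by shared transcript, junction or gene record (1449 of 1696), and entries were summed per host and per junction. At 808 junctions with an entry of each kind, the identifier entry starts 1 base higher.

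Tests used edgeR 4.0.16 (TMM, 1 fit of all 3 groups, robust quasi-likelihood F-test, Benjamini-Hochberg FDR 0.05) in R 4.3.3 after filterByExpr (minimum count 5, total 15), with DESeq2 1.42.0 as an alternative. SEs are the log2 fold change over the root of F. Shares and exon numbers were compared with exact permutation tests over libraries. Junctions with at least 10 reads, up to 4 members of each list by reads, and the 5 most and 3 least similar hosts are named. The members, lists and tests were chosen with earlier results of these data known. Intervals and floors cover counting error only. The result of 1 further gene list is not reported here.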

Additional observations from a re-analysis of the deposited data

Results flagged for a closer look

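In sham 5 circRNA1171 took 21.95% of the Agmo reads, far below the 33.96 to 37.7% of the other 4 sham libraries. After sleeve gastrectomy ciRNA1575, written as intronic, had 2 reads in replicate 4 and 0 in the other 4 libraries. Of the 22 sets of 5 values examined for such gaps, chance would mark about 1 in 20. That rate does not hold for sparse counts, since a junction read in a single library of a group, such as ciRNA1575, is always marked.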

How the results depend on the processing

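The fold change of summed Agmo reads for sleeve gastrectomy against sham stayed between −0.97 and −0.88 over 8 changes of fit, scaling or filter (edgeR or DESeq2 adjusted p 0.284 to 0.821), and none passed; leaving out single libraries gave −1.05 to −0.84. For relapse against sleeve gastrectomy these were 0.88 to 1.17, and 0.23 to 1.69 with libraries left out. For relapse against sham the sign turned with the replicate block (−0.0593) and with left-out libraries (−0.74 to 0.73, the lowest without relapse 2). Same-numbered sham and sleeve gastrectomy libraries did not deviate together (r −0.0956 to 0.0161, none closest to its own number). The highest r with another number was also small (0.0364 to 0.0675), so this check cannot tell whether the numbers pair the libraries. The block changed no call on Agmo.

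Hosts called for sleeve gastrectomy against sham, relapse against sleeve gastrectomy and relapse against sham numbered 2, 1 and 2. They numbered 0, 0 and 1 with a minimum count of 10 and with only the 2 groups compared, 1, 0 and 1 with symbol entries alone, 0, 0 and 2 with DESeq2 and 2, 2 and 3 without a filter. With single libraries left out they ranged from 0 to 2, 0 to 1 and 0 to 5. Called entries, 0 in each comparison, were 2 and 1 in the relapse comparisons with DESeq2, and with libraries left out 0 to 6 and 0 to 5. The cause was not tested.

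For the 4 junctions 226 alternative values kept direction and call and 10 turned in sign. The sign turned with the replicate block for circRNA1169 against sleeve gastrectomy (−0.29). With libraries left out, sleeve gastrectomy against sham ranged from −1.35 to −0.92 for circRNA1171, −0.81 to −0.37 for circRNA1170, −0.53 to −0.04 for circRNA1169 and −2.73 to −1.69 for circRNA1168. Relapse against sleeve gastrectomy ranged from −0.27 to 1.36 for circRNA1171, −0.41 to 1.33 for circRNA1170 and −0.54 to 0.49 for circRNA1169, and relapse against sham from −1.34 to 0.29, −1.07 to 0.67 and −0.85 to 0.18. In RPM, whose denominator is larger, the sleeve gastrectomy mean was 1119, or 1099 with symbol entries alone. Of the 18 junctions, 14 had too few reads to be tested.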
